A study of Homo sapiens with 12 samples.

Results

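The 10 genes described here encode transcription factors, many of which cells switch on within minutes of a stimulus. They are the AP-1 subunits FOS, FOSB, FOSL1, FOSL2, JUN, JUNB and JUND, the zinc finger factor EGR1, the stress-induced factor ATF3 and the growth regulator MYC. They were chosen by name, as the rows of the count table that carry these symbols, and all 10 were found among 57500 gene IDs. Each passed the filter on low counts in both comparisons and was therefore tested in both. The rule uses no measured value.

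Total RNA was sequenced after depletion of ribosomal RNA in 12 libraries, which are 3 biological replicates of each of 4 groups, from 3 established cancer cell lines. SW480, from a primary colorectal tumour, and SW620, from a metastasis of the same patient's tumour, were grown untreated in DMEM. PEO4, an ovarian cancer line, was grown in RPMI 1640 as a control or with 10 ng/mL of recombinant human TGF-β for 6 days. All cells were kept in medium with fetal bovine serum, penicillin and streptomycin, so serum, itself an inducer of these genes, was present in every group. Each group is a culture of a single line, and the PEO4 and SW lines differed in medium as well as tissue. The samples thus allow 2 comparisons, SW620 against SW480 and PEO4 with TGF-β against PEO4 control.

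AP-1 is a dimer in which a FOS-family protein pairs with a JUN-family protein, or in which JUN-family proteins pair with each other, and it binds short DNA sites in promoters and enhancers. Serum and growth factor signals reach the FOS and EGR1 promoters through MAP kinases and the serum response factor SRF, and stress kinases act on JUN and ATF3. The transcripts are short-lived, so their level follows recent signalling closely. MYC pairs with MAX at E-box sites and drives ribosome production and growth, and TGF-β is known to repress it in many epithelial cells through SMAD and E2F complexes. SMAD proteins can also bind AP-1, and both act on shared target genes.

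Upstream sequence is shown for FOS and EGR1, the members called lower with TGF-β when replicates were paired. The bases come from RefSeq's promoter windows on GRCh38.p14, cut to the part before the annotated transcript start, on the strand of the gene and 5′ to 3′. For FOS they are chr14:75278578-75278773 (+), and for EGR1 chr5:138465229-138465478 (+). Capitals in EGR1 mark the matches to the CArG box, the site that SRF binds.
FOS: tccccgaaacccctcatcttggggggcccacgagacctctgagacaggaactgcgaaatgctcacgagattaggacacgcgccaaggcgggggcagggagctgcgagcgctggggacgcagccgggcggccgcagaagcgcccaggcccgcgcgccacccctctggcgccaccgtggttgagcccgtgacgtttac
EGR1: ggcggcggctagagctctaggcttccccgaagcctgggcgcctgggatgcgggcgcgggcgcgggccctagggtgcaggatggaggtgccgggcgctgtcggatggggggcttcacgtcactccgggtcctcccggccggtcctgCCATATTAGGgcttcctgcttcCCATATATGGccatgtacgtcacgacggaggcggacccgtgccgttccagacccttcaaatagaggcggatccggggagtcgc
The windows of 8 members, each reaching 250 bases before to 50 after the RefSeq start, were searched on both strands for TGACTCA (the AP-1 site), TGACGTCA (the CRE), CACGTG (the E-box), CAGACA (a SMAD-type site) and the CArG box. The EGR1 window held 2 CArG boxes, CCATATTAGG and CCATATATGG, whose first bases lie at -105 and -83 from the start. A CArG box occurred in 1.29% of 35116 promoter windows of the same length. The JUND window held a CRE at -200 and the FOSL2 window an AP-1 site at 5 bases after the start, motifs found in 1.85% and 4.95% of all windows. The windows of FOS, FOSB, JUN, JUNB and ATF3 held none of these letters. The windows of JUN (chr1:58783998-58784297) and FOSL2 (chr2:28392608-28392907) lay wholly inside the gene positions of GENCODE 29 given below. For JUN and FOSL2, no base before that annotated start was therefore searched. The second ATF3 window also lay inside its gene. Sequence farther upstream was not searched, so sites there would be missed. An E-box was present in 7.26% of all windows and the SMAD-type letters in 16.9%, but in none of the 8 searched here.

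The genes lie on 7 chromosomes in GRCh38 (GENCODE 29). FOS occupies chr14:75278774-75282230, FOSB chr19:45467995-45475179, FOSL1 chr11:65892049-65900573 and FOSL2 chr2:28392448-28417312. JUN occupies chr1:58780788-58784327, JUNB chr19:12791496-12793315 and JUND chr19:18279760-18281622, and each of the 3 has a single exon. EGR1 occupies chr5:138465490-138469315, ATF3 chr1:212565334-212620777 and MYC chr8:127735434-127741434. JUNB shares 259 exonic bases with HOOK2, which lies on the opposite strand and reached 1965 counts, and the use of strand in counting is not given in the sources used here. The level of JUNB is therefore uncertain.

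Levels are given in CPM, the usual unit for counts relative to a library's gene-assigned total, scaled by TMM (trimmed mean of M values) factors over all 12 libraries. Library totals ranged from 14531420 to 22028956 counts, which puts the limit set by 3 counts at 0.136 to 0.206 CPM, counting error only, and every member lay far above it. The summed level of 8 colorectal markers was 90.5 to 115 CPM in SW480, 281 to 402 CPM in SW620 and 9.12 to 13.3 CPM in PEO4, where CDX1, CDX2, CDH17, KRT20 and GPA33 had 3 counts or fewer. That of 8 ovarian markers was 110 to 195 CPM in the SW lines, 5358 to 8708 CPM in PEO4 control and 3000 to 4785 CPM with TGF-β. In PEO4, 3 of 7 tested genes of that list were called lower with TGF-β by edgeR, against 0.991% of all genes. They were MSLN (-0.77), EMX2 (-0.49) and WT1 (-0.47), in log2 units. MUC16 held most of the sum, at 5669 ± 1738 CPM in control and 2410 ± 972 CPM with TGF-β (SD, n = 3). It was not called (edgeR adjusted p 0.0701). PAX8 (0.028) and SOX17 (0.15) had positive differences. The part of these genes in the PEO4 results was not tested. Fibroblast markers summed to at most 15.1 CPM. SW620 replicate 3 stood apart in its share of PEO4-like reads, estimated from genes high in PEO4 and near absent from most other SW libraries. That share was 1.31% (31 genes), against 0.169 to 0.416% in the other 5 SW libraries. SW-like reads, estimated in the same way, were put at 1.04% in PEO4 control replicate 3 and 1.37% in PEO4 TGF-β replicate 3, from 2 genes each. For the other 4 PEO4 libraries no gene met the rule, so no share could be estimated. Libraries with the same replicate number also deviated together, so fits with the replicate number as a block are given beside results whose call they change.

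In SW620 compared with SW480, JUN, ATF3, FOSB and MYC were higher and FOSL2 was lower, and the other 5 members did not pass the test. The comparison asks how a metastasis-derived line differs from the line of the primary tumour. Calls were made on an adjusted p under 0.05 in edgeR's quasi-likelihood test over 20941 genes, of which 30.5% were called (13.5% higher, 17.0% lower). Against that background 4 of 10 members were called higher and 1 lower, and the members' median log2 difference was 0.67 against 0.03 over all genes tested. With the replicate block, which called 50.9% of all genes (24.4% higher, 26.5% lower), 6 members were higher and 2 lower. Taken as counts per library total without TMM factors, the library values of the lines did not overlap for 4 of 10 members, against 46.0% of all genes.

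**Figure D1:**
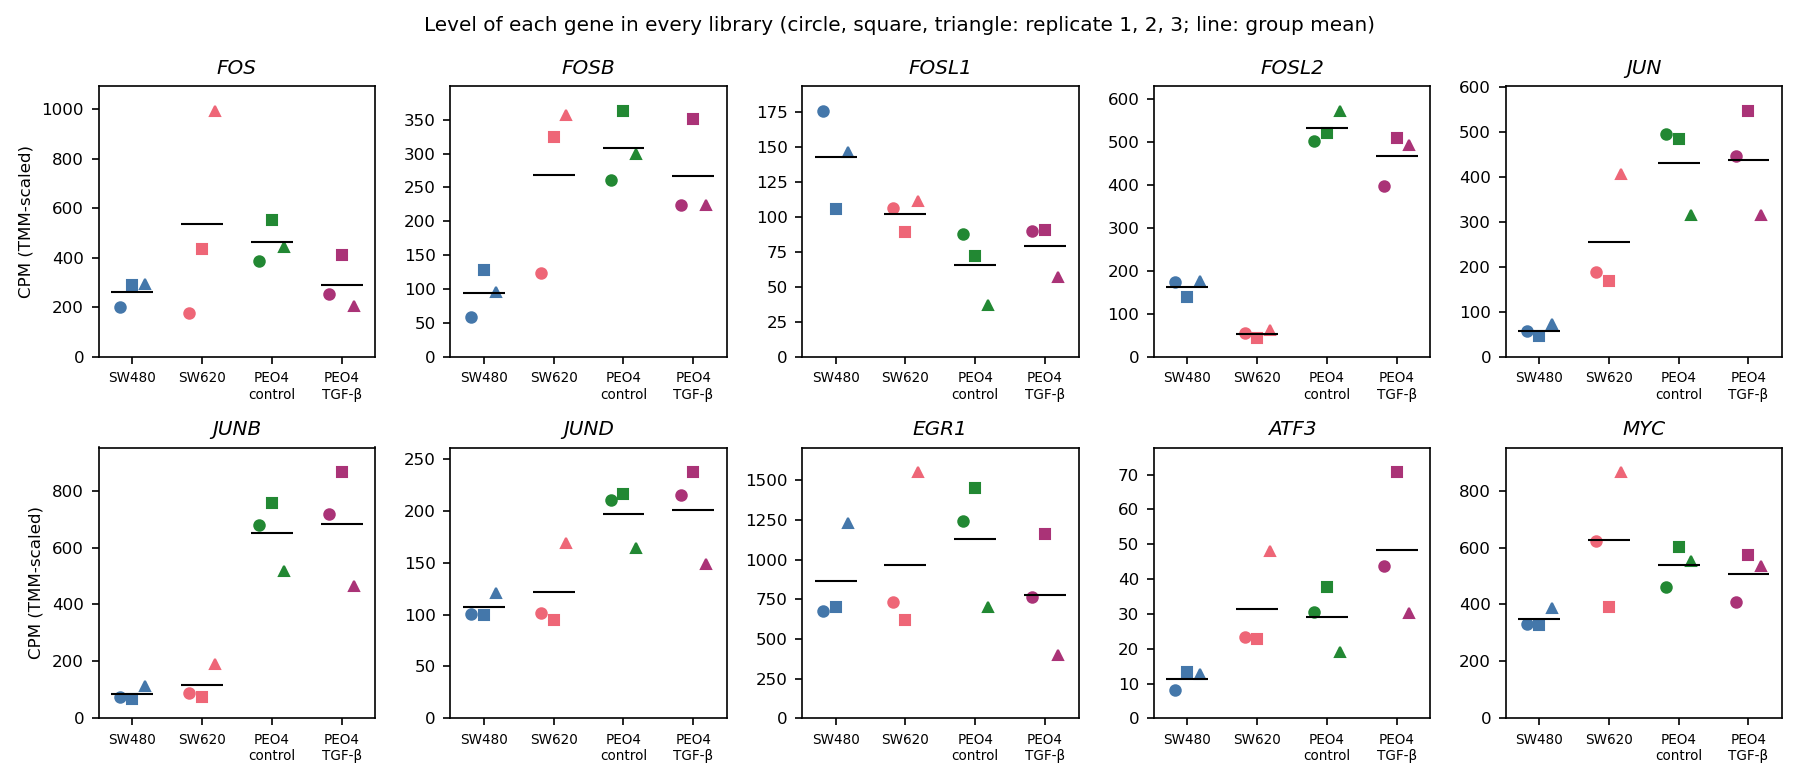
Level of each of the 10 genes in CPM (TMM-scaled, linear axes from 0, a separate scale for each gene) in every library of the 4 groups. Circles, squares and triangles are replicates 1, 2 and 3, and lines are group means. JUN is lower in all 3 SW480 libraries than in any other library, and SW620 replicate 3 (triangle) is the highest of its group for all 10 genes.

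JUN, a strong transactivator among the AP-1 subunits, had the largest fitted difference of the 10. Its level was 58.3, 45.4 and 72.0 CPM in the 3 SW480 libraries and 189, 169 and 407 CPM in the 3 SW620 libraries. Every SW620 library lay above every SW480 library, with replicate 3 the highest of SW620. The fold was 4.41-fold (95% interval 2.55 to 7.62), a log2 difference of 2.14 ± 0.35 (± SE, as for the log2 differences below that carry ±), and edgeR's quasi-likelihood test gave an adjusted p of 0.00164. JUN passed the threshold in each of the 18 alternative fits, with a log2 difference of 1.62 when SW620 replicate 3 was left out.

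FOSL2, also called FRA2, moved in the opposite direction. SW480 libraries held 175, 138 and 177 CPM and SW620 libraries 54.6, 43.8 and 63.6 CPM. The groups did not overlap. FOSL2 differed by -1.58 ± 0.19 log2 units, with an adjusted p of 0.000329 (edgeR, Benjamini-Hochberg), and FOSL2 passed in each of the 18 alternatives, with values between -1.72 and -1.40. PEO4-like reads were estimated to make up 9.57% of the FOSL2 counts of SW620 replicate 3, and its difference was -1.72 without that library.

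FOSL1, or FRA1, known as a target of sustained MAP kinase signalling in invasive cells, was called lower with the block and not in the unblocked fit. Its levels were 176, 105 and 146 CPM in SW480 and 106, 89.1 and 112 CPM in SW620. The ranges overlapped between SW480 replicate 2 and the SW620 libraries, although SW620 was the lower member of every replicate pair. The log2 difference was -0.46 ± 0.21 with an adjusted p of 0.138 without the block and -0.43 ± 0.12 with an adjusted p of 0.00632 with it (edgeR's quasi-likelihood test). Without replicate 1 of both groups the blocked call was lost (-0.24, edgeR adjusted p 0.135). Unblocked, FOSL1 was called without SW480 replicate 2 (-0.65, edgeR adjusted p 0.0444), and without SW480 replicate 1 the difference was -0.25.

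FOSB, a subunit whose long form activates transcription, was higher in SW620. Its levels were 58.7, 127 and 96.2 CPM in SW480 and 124, 324 and 356 CPM in SW620. SW620 replicate 1 lay just under SW480 replicate 2, so the groups overlapped at that point, while SW620 was the higher member of all 3 pairs. FOSB differed by 1.53 ± 0.41 log2 units, with an adjusted p of 0.0198 by edgeR. Leaving out SW480 replicate 1 or SW480 replicate 3 ended the call, with adjusted p of 0.0699 and 0.0584 in edgeR's test, and with the block the difference was 1.46 ± 0.14.

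FOS, the founding member of the family and an SRF target, was higher in some fits and not in others. SW480 libraries held 201, 290.4 and 294 CPM, and SW620 libraries 178, 436 and 995 CPM. The SW620 values ran from below the lowest SW480 value to more than any other library of the study, a range of 5.60-fold within 1 line. The log2 difference of 1.05 ± 0.51 had an adjusted p of 0.156 (edgeR, quasi-likelihood test), and with no filter on low counts the adjusted p was 0.0183. With the block FOS was called higher, at 0.74 ± 0.24 with an adjusted p of 0.0171, but without replicate 3 of both groups the blocked difference was 0.22 with an adjusted p of 0.253. Without SW620 replicate 3 alone the unblocked difference was 0.24, while without SW620 replicate 1 it was 1.51 and passed the test with an adjusted p of 0.0293.

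JUNB and JUND, JUN-family members that are weaker activators than JUN and often oppose it in growth control, were not called without the block. JUNB levels were 73.4, 68.3 and 115 CPM in SW480 and 88.0, 74.0 and 190.4 CPM in SW620, and JUND levels were 101, 99.3 and 121 CPM and 102, 94.9 and 169 CPM. Both genes overlapped between the lines, and SW620 replicate 3 was the highest SW library for each. The log2 differences were 0.48 ± 0.36 for JUNB and 0.21 ± 0.23 for JUND, with adjusted p of 0.361 and 0.559 by edgeR. JUNB was called with the block (0.39 ± 0.13, edgeR adjusted p 0.0156), but not with the block when replicate 3 of both groups was left out (0.20, edgeR adjusted p 0.133). PEO4-like reads were estimated at 4.22% of JUNB counts in SW620 replicate 3, and without that library the signs turned, to -0.067 for JUNB and -0.11 for JUND.

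EGR1, a zinc finger factor induced by SRF, had the highest level of the 10 per kilobase of exon in both colorectal lines (277 ± 99.6 RPKM in SW480 and 308 ± 162 RPKM in SW620, SD, n = 3), and it was not called between them. Its levels were 674, 702 and 1229 CPM in SW480 and 730.4, 621 and 1552 CPM in SW620. Replicate 3 was the highest of either line, and the rest of the values lay close together. The log2 difference was 0.17 ± 0.38 (95% interval -0.69 to 1.04; adjusted p 0.776, edgeR), and it was -0.35 without SW620 replicate 3.

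ATF3, a stress-induced partner of JUN that can repress its targets, was higher in SW620. SW480 libraries held 8.11, 13.2 and 12.6 CPM and SW620 libraries 23.4, 22.7 and 48.2 CPM. All SW620 libraries exceeded all SW480 libraries. ATF3 differed by 1.49 ± 0.32 log2 units, with an adjusted p of 0.00745 (edgeR's quasi-likelihood test), and ATF3 passed in each of the 18 alternatives, at 1.04 without SW620 replicate 3.

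MYC was higher in SW620, close to the threshold. Its levels were 331, 329 and 387 CPM in SW480 and 624, 391 and 865 CPM in SW620. The lines did not overlap, but SW620 replicate 2 lay only just above SW480 replicate 3. The fold was 1.82-fold (95% interval 1.17 to 2.82), a log2 difference of 0.86 ± 0.28 with an adjusted p of 0.0439 by edgeR. The call was lost when any 1 of the 3 SW480 libraries was left out (0.86, 0.81 and 0.94, adjusted p of 0.144, 0.118 and 0.107 in edgeR's test) and without SW620 replicate 1 (0.91, adjusted p 0.120) or replicate 3 (0.55, adjusted p 0.106). With the block the difference was 0.80 ± 0.15 with an adjusted p of 0.000377 in the same test, and it remained past the threshold without replicate 3 of both groups, at 0.59.

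**Figure D2:**
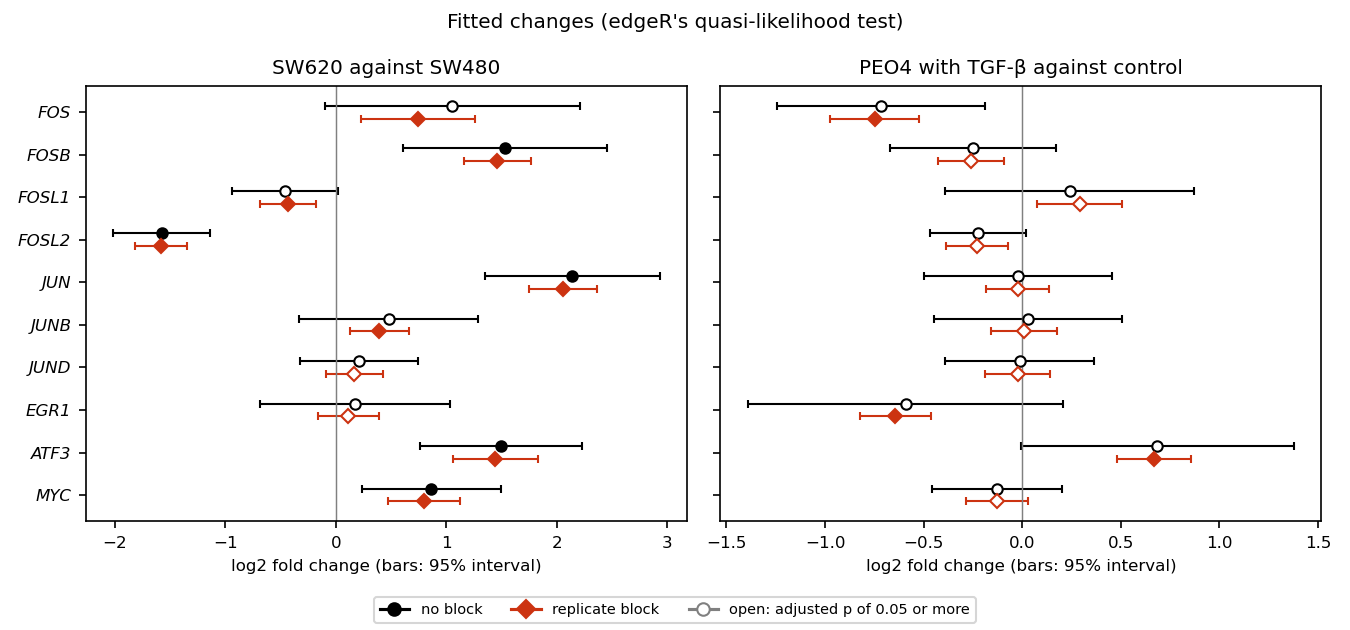
Log2 fold change of each gene from edgeR's quasi-likelihood test, SW620 against SW480 (left) and PEO4 with TGF-β against control (right), with 95% intervals. Black circles are fits without and red diamonds fits with the replicate block, and open symbols have an adjusted p of 0.05 or more. On the left 5 black circles are filled, and on the right none, while 3 red diamonds are filled there (FOS, EGR1 and ATF3).

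In PEO4 no member was called between TGF-β and control without the block. The comparison asks what 6 days of TGF-β changed in an ovarian cancer line. Over 19064 genes edgeR called 2.26% at an adjusted p under 0.05 (1.27% higher, 0.991% lower), and 0 of 10 members were among them. DESeq2, which called 5.29% of all genes, also called 0 members, and 1 member, FOS, had an unadjusted p under 0.05 in edgeR (0.0135). Taken as counts per library total without TMM factors, the library values of the groups overlapped for each of the 10 members. They did not overlap for 20.7% of all genes. The block, which called 11.0% of all genes (6.35% higher, 4.68% lower), called ATF3 higher and FOS and EGR1 lower. The same 3 were called in the blocked fit without replicate 1, 2 or 3 of both groups (10.3, 10.3 and 6.10% of all genes called), and with the block and a correction for GC content (11.0%). They were also called by edgeR without the block when no filter on low counts was used (3.82%), but in no other fit without the block. Each of FOS, EGR1 and ATF3 thus passed in 6 of the 18 alternatives.

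FOS fell with TGF-β in the blocked fit. Control libraries held 386, 555 and 446 CPM and TGF-β libraries 255, 412 and 204 CPM. TGF-β replicate 2 lay above control replicate 1, so the groups overlapped, but within each pair the TGF-β library was lower, with changes of -34.0, -25.7 and -54.2%. The log2 difference was -0.71 ± 0.23 (adjusted p 0.172) without the block and -0.75 ± 0.10 (adjusted p 0.000448) with it, both from edgeR's quasi-likelihood test.

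EGR1 also fell in the blocked fit. Control libraries held 1241, 1452 and 704 CPM and TGF-β libraries 767, 1159 and 401 CPM. Replicate 3 was the lowest of both groups and replicate 2 the highest, and the changes with TGF-β were -38.2, -20.2 and -43.1% in the 3 pairs. Unblocked, EGR1 differed by -0.59 ± 0.35 log2 units (adjusted p 0.449), and with the block -0.64 ± 0.083 (adjusted p 0.000248), by edgeR.

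ATF3 rose with TGF-β in the blocked fit. Control libraries held 30.5, 37.7 and 19.1 CPM and TGF-β libraries 43.8, 70.7 and 30.3 CPM. The groups overlapped, since TGF-β replicate 3 lay near control replicate 1, while each TGF-β library exceeded its own control, by 43.6, 87.5 and 58.5%. The log2 difference was 0.69 ± 0.31 (adjusted p 0.303) without and 0.67 ± 0.086 (adjusted p 0.000231) with the block in edgeR's test.

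MYC, the member with the best-known response to TGF-β, was not called in any fit. Control libraries held 462, 601 and 553 CPM and TGF-β libraries 410.2, 574 and 535 CPM. The ranges overlapped, and the TGF-β library was lower in each pair, with changes of -11.2, -4.55 and -3.25%. The log2 difference was -0.13 ± 0.15 (95% interval -0.46 to 0.20), and -0.13 ± 0.071 (95% interval -0.28 to 0.028) with the block. The lower bound of the unblocked interval corresponds to 0.729 times the control level. Over the 18 alternatives, run in edgeR or DESeq2, adjusted p lay between 0.104 and 0.998.

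**Figure D3:**
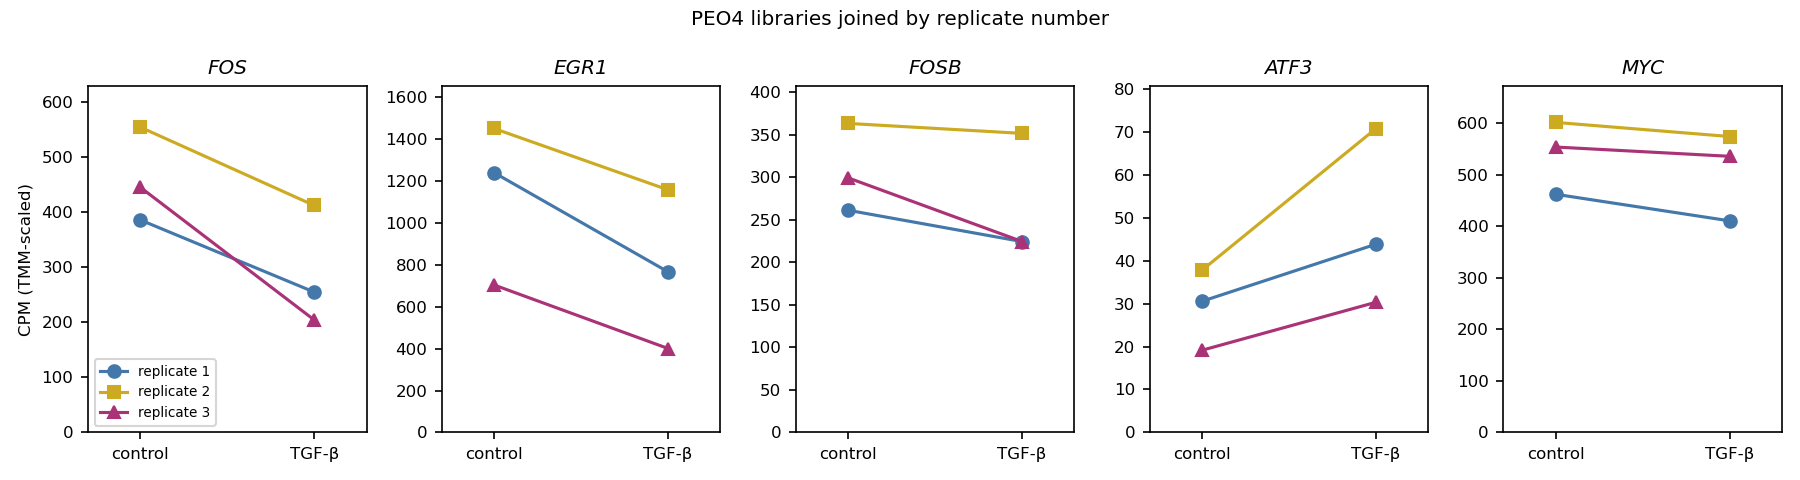
CPM of FOS, EGR1, FOSB, ATF3 and MYC in PEO4 control and TGF-β libraries (linear axes from 0, a separate scale for each gene), with lines that join libraries of the same replicate number. The lines of FOS and EGR1 fall in 3 of 3 pairs, those of ATF3 rise in 3 of 3, and those of MYC fall slightly.

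No JUN-family transcript was called with TGF-β, with or without the block. JUN was 496, 486 and 315 CPM in control and 448, 548 and 315 CPM with TGF-β, a log2 difference of -0.022 ± 0.21 (95% interval -0.50 to 0.45). JUNB was 679, 755 and 517 CPM in control and 717, 865 and 466 CPM with TGF-β, a difference of 0.030 ± 0.21 (95% interval -0.45 to 0.51). JUND was 211, 216 and 164 CPM in control and 215, 237 and 148 CPM with TGF-β, a difference of -0.011 ± 0.17 (95% interval -0.39 to 0.37). For each of the 3 genes the groups overlapped, replicate 3 was the lowest of both groups, and the sign of the difference changed in some alternatives.

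FOSB, FOSL1 and FOSL2 were not called with TGF-β in either fit. FOSB was 261, 363 and 299 CPM in control and 224, 352 and 225 CPM with TGF-β, lower in 3 of 3 pairs, with a blocked log2 difference of -0.26 ± 0.078 (edgeR adjusted p 0.0506). FOSL2 was 503, 522 and 573 CPM in control and 399, 510.0 and 493 CPM with TGF-β, also lower in 3 of 3 pairs, with a blocked difference of -0.23 ± 0.073 (edgeR adjusted p 0.0656). Both passed the threshold when GC correction and the block were combined, with adjusted p of 0.00550 for FOSB and 0.0133 for FOSL2 (edgeR). FOSL1 was 87.9, 72.0 and 37.0 CPM in control and 90.3, 90.7 and 57.1 CPM with TGF-β, higher in 3 of 3 pairs, with a blocked difference of 0.29 ± 0.10 (edgeR adjusted p 0.0841). It passed with the block when replicate 1 or 2 of both groups was left out, with edgeR adjusted p of 0.0162 and 0.0247, and FOSB and FOSL2 when replicate 2 was, at 0.0117 and 0.0241. The difference of FOS from FOSB or FOSL1 was not tested.

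Of 10 heat shock genes, which respond to handling and stress as ATF3 does, 1 was called in PEO4 with TGF-β and 9 had a positive difference. HSPA6, a strictly inducible HSP70, passed edgeR's test at a log2 difference of 1.55 (adjusted p 0.0175), which held in 5 of 6 fits that left out 1 library. With the block 7 of the 10 were called higher, against 6.35% of all genes. DESeq2 called 5 of the 10 higher and 0 lower, where it called 5.29% of all genes. The summed level of the list was 3775 to 5068 CPM in control and 4782 to 5767 CPM with TGF-β. Its part in the ATF3, FOS and EGR1 results was not tested. In bulk RNA, fewer cells that express a gene and less RNA per cell cannot be told apart.

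Across the 4 groups the members fell into different orders. JUNB and FOSL2 were highest in PEO4: the control and TGF-β means were 650.3 ± 122 and 683 ± 202 CPM for JUNB and 533 ± 36.3 and 467 ± 59.9 CPM for FOSL2 (SD, n = 3). The SW means were 85.5 ± 25.5 CPM of JUNB in SW480 and 117 ± 63.5 CPM in SW620, with no overlap between any PEO4 and any SW library. FOSL2 separated 3 levels, since PEO4, SW480 (163 ± 21.9 CPM) and SW620 (54.0 ± 9.90 CPM) did not overlap (SD, n = 3). These are descriptions, because line, tissue and medium differ together between PEO4 and the SW lines and cannot be told apart.

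By group mean SW480 was the lowest group for JUN, ATF3, FOSB and MYC, and also for FOS, JUNB and JUND. The SW480 means were 58.6 ± 13.3 CPM of JUN, 11.3 ± 2.80 CPM of ATF3, 94.1 ± 34.4 CPM of FOSB and 349 ± 33.1 CPM of MYC (SD, n = 3). The SW620 means were 255 ± 132 CPM of JUN, 31.4 ± 14.5 CPM of ATF3, 268 ± 126 CPM of FOSB and 627 ± 237 CPM of MYC (SD, n = 3). In the order of group means, SW620 ranges overlapped the neighbouring PEO4 group for each of JUN, ATF3, FOSB and MYC. JUND ran from 107 ± 12.1 CPM in SW480 to 200.4 ± 46.4 CPM in PEO4 with TGF-β (SD, n = 3), and each neighbour in that order overlapped the next. FOSL1 was highest in SW480 (143 ± 35.4 CPM) and lowest in PEO4 control (65.6 ± 26.1 CPM; SD, n = 3), again with overlap between neighbours. FOS and EGR1 overlapped between all neighbouring groups.

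Set per kilobase of exon (RPKM), the AP-1 subunit transcripts had a different mean composition in each line. In SW480, FOS made up 25.5% of the summed level of the 7 subunits, FOSL1 23.9%, JUND 18.1% and JUNB 14.6%, with FOSL2, FOSB and JUN at 7.22, 5.40 and 5.18%. In SW620, FOS held 31.4% and JUN 15.2%, and FOSL1 held 13.0% and FOSL2 1.78%. In PEO4 control JUNB was the largest share at 39.9%, followed by FOS at 16.1% and JUN at 13.6%, with FOSL1 the smallest at 3.83%. With TGF-β the share of FOS was 10.4% and that of JUNB 43.7%. FOS-family transcripts together made up 62.1% in SW480, 56.6% in SW620, 34.7% in PEO4 control and 29.1% in PEO4 with TGF-β.

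Between the SW lines the shares of JUN (higher), FOSL1 and FOSL2 (lower) did not overlap, and in PEO4 that of FOS (lower with TGF-β) did not. Each of these reached the smallest two-sided p that an exact permutation test of 3 against 3 libraries can give, 0.1, and 0.35 after Benjamini-Hochberg adjustment over 14 tests, so none could pass a threshold of 0.05. The summed level was 317 ± 36.4 RPKM in SW480, 478 ± 240 in SW620, 893 ± 133 in PEO4 control and 851 ± 220 with TGF-β (SD, n = 3). Shares depend on the length used: with the longest transcript in place of all exons, FOS was 32.1% in SW480 and JUNB 35.6% in PEO4 control.

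**Figure D4:**
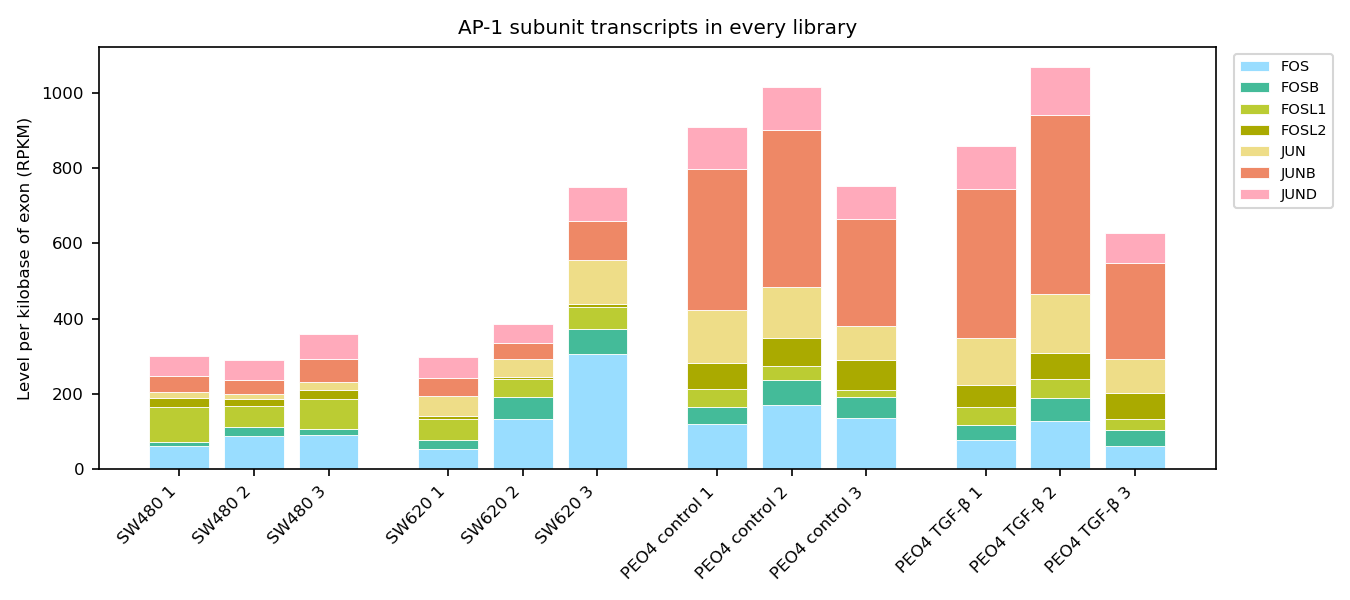
Stacked level per kilobase of exon (RPKM, linear axis from 0) of the 7 AP-1 subunit transcripts in each of the 12 libraries. JUNB is the largest segment in every PEO4 library, and JUN is a thin segment in SW480 and a larger one in SW620.

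Of the 10 members, 9 had a larger SD between replicates, pooled over the 4 groups, than the median gene. The pooled SD within groups, on log2 CPM, was 0.70 for FOS, 0.64 for EGR1, 0.55 for FOSB and 0.53 for ATF3. The median over 10411 genes of at least 10 CPM was 0.21, and 99.5% of these genes had a smaller SD than FOS and 99.3% a smaller SD than EGR1. JUNB (0.49), JUN (0.47) and FOSL1 (0.43) exceeded 97.7, 97.1 and 95.3% of genes. MYC (0.34) and JUND (0.32) exceeded 86.0 and 82.8%, and FOSL2 (0.20) exceeded 44.1%. The spread differed between groups: FOS had an SD of 1.24 in SW620 and 0.26 to 0.52 in the other groups. In SW480, MYC and JUND exceeded only 32.6 and 40.8% of genes, and in SW620 FOSL1 exceeded 23.7% and FOSL2 48.0%. FOSL2 exceeded 29.1% in PEO4 control.

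The members' deviations were shared within libraries. SW620 replicate 3 was the highest of its group for 10 of 10 members, with a median deviation of 0.63 log2 units from the group mean, and that library's trend with GC content over all genes was 0.15 to 0.27 log2 units at these genes' GC content. SW480 replicate 3 was above its group mean for 10 of 10 members too, at a median of 0.18, and the highest for 7. PEO4 TGF-β replicate 2 was the highest of its group for 10 of 10 members, at a median of 0.37. PEO4 replicate 3 was the lowest for 6 members in control and 7 with TGF-β, and SW620 replicate 2 for 8. Summed heat shock transcripts were 4717 CPM in SW620 replicate 3 and 3079 and 2182 CPM in replicates 1 and 2. Their part in these deviations was not tested.

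**Figure D5:**
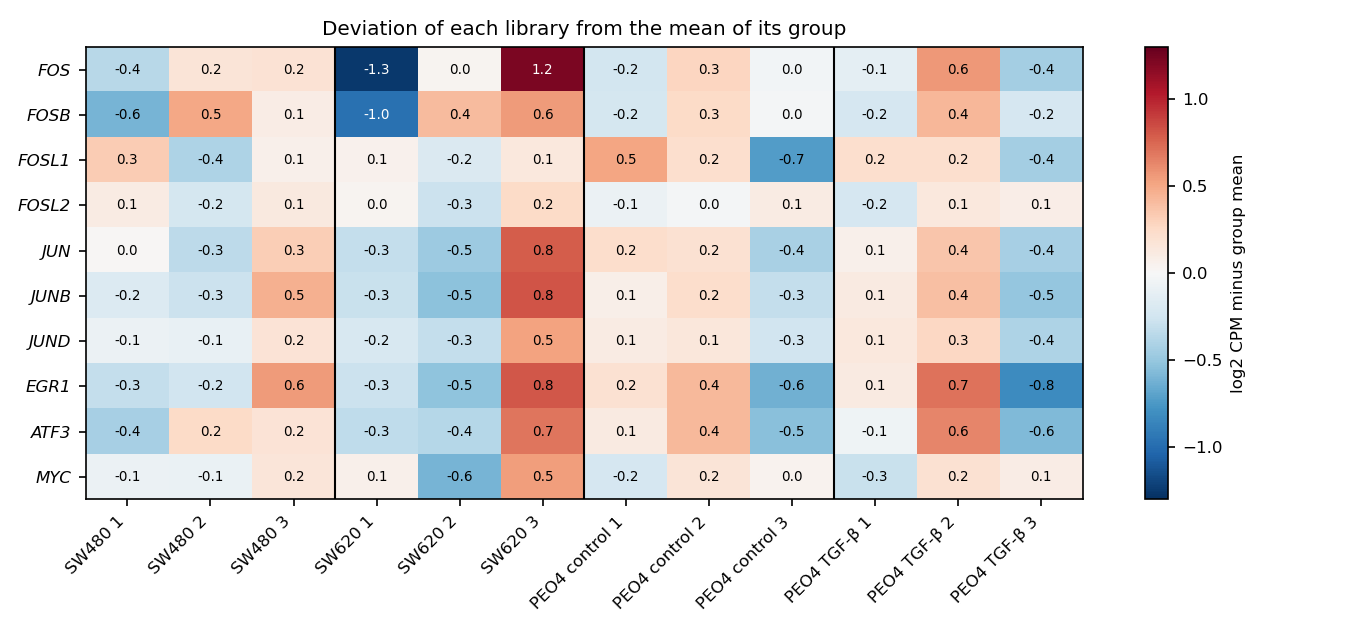
Deviation of each library's log2 CPM from its group mean, for each gene (rows) and library (columns), coloured from blue (below) to red (above) with the value in each cell. SW480 replicate 3, SW620 replicate 3 and PEO4 TGF-β replicate 2 are above their group mean for all 10 genes.

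Other genes of the early response held calls in both directions between the SW lines. Of 20, 5 were called higher in SW620 and 4 lower, against 13.5% and 17.0% of all genes. With the block 7 and 6 were, against 24.4% and 26.5%, and the median log2 difference was 0.13 against 0.03 over all genes tested. BTG2, an antiproliferative factor, rose from 16.2 ± 4.30 to 75.9 ± 31.0 CPM, and the nuclear receptor NR4A2 from 7.65 ± 0.605 to 31.0 ± 2.77 CPM (SD, n = 3). EGR2, a relative of EGR1, rose by 1.60 log2 units and IER5 fell, at -1.74, with edgeR adjusted p of 0.00237 and 0.00102. In PEO4 none of the 20 was called by edgeR without the block or by DESeq2, and 0 had an unadjusted p under 0.05 in edgeR. With the block 1 was higher and 5 were lower, against 6.35% and 4.68% of all genes. Among the latter were BTG2 (-0.97, adjusted p 2.52e-05), EGR2 (-0.89, adjusted p 0.000174) and NR4A1 (-0.55, adjusted p 0.000881), and KLF4, an epithelial differentiation factor, was the 1 that was higher (0.64, adjusted p 0.00273; all edgeR with the block).

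Of 13 other AP-1 partners tested in the SW lines, 0 were called higher in SW620 and 3 lower, against 13.5% and 17.0% of all genes, and with the block 2 and 4, against 24.4% and 26.5%. The large MAF protein MAF (-2.07) and the small MAF protein MAFF (-0.94) were among those lower without the block, in log2 units. DESeq2 also called 0 higher, and 4 lower. MAFF passed in 4 of 6 fits that left out 1 library. In PEO4 none of 11 tested was called by edgeR without the block or by DESeq2, and 2 had an unadjusted p under 0.05 in edgeR. With the block 1 was called, the small MAF protein MAFG (0.34, edgeR adjusted p 0.0113). ATF4, the partner with the most counts, differed by 0.098.

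Several transcripts of known AP-1 target genes were lower in SW620. Of 10 tested, 5 were called lower and 1 higher, against 17.0% and 13.5% of all genes, and with the block 5 and 2, against 26.5% and 24.4%. The median log2 difference was -0.79 against 0.03 over all genes tested. The cell cycle gene CCND1 fell from 3299 ± 917 to 388 ± 84.3 CPM, the hyaluronan receptor CD44 from 149 ± 19.0 to 25.5 ± 3.91 CPM and the cytokine LIF from 113 ± 9.78 to 12.8 ± 1.78 CPM (SD, n = 3). CXCL8, a chemokine, was higher but scarce, with a mean of 5.18 ± 3.29 CPM for SW620 (SD, n = 3) and no more than 7 counts in any SW480 library. Many of these genes are also controlled by other factors, and a link to AP-1 levels was not tested.

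With TGF-β most tested AP-1 targets of PEO4 had a positive difference. PLAU, the urokinase protease, was the 1 of 12 called, and rose from 115 ± 41.0 to 305 ± 51.9 CPM (SD, n = 3; log2 difference 1.38, edgeR adjusted p 0.0150). When single libraries were left out it passed in 4 of 6 fits, and over the alternatives its adjusted p reached 0.110 (edgeR). The median of the 12 was 0.58 against -0.02 over all genes tested, and 10 were positive. DESeq2 called 5 genes of the list higher and 0 lower, where it called 5.29% of all genes. With the block 7 were called higher and 1 lower, against 6.35% and 4.68% of all genes, the former including CD44 (1.64, adjusted p 3.22e-06) and SPP1 (1.17, adjusted p 0.00420; edgeR). PLAU is also known as a gene that TGF-β induces.

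The MAX network around MYC held calls in both directions in SW620. Of 12 genes, 3 were called higher and 1 lower, a total near the 30.5% of all genes called, and 5 and 2 were with the block, which called 50.9%. MXD4, a MAX partner that opposes MYC, rose from 14.3 ± 3.06 to 64.5 ± 17.3 CPM, MLXIP, which pairs with the MAX-like protein MLX, from 106 ± 3.18 to 197 ± 17.3 CPM, and MYCL fell from 11.5 ± 1.98 to 4.30 ± 1.58 CPM (SD, n = 3). MLXIPL was higher at 0.87 log2 units but passed in 3 of 6 fits that left out 1 library. In PEO4 none of 11 was called by edgeR, where 4 had an unadjusted p under 0.05, and DESeq2 called 1, MLXIP, higher. MLXIP differed by 0.41 with an adjusted p of 0.0521 by edgeR. With the block MLXIP was higher (0.41) and MLXIPL (-1.50) and MNT (-0.28) were lower there.

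Several MYC target genes were higher in SW620. Of 20, 6 were called higher and 1 lower, against 13.5% and 17.0% of all genes, and with the block 11 and 1, against 24.4% and 26.5%. Of the 20, 17 had a positive difference, and the median was 0.40 against 0.03 over all genes tested. The nucleolar protein NOP56 rose from 136 ± 11.6 to 339 ± 62.1 CPM, the ribosome assembly factor PPAN from 2.84 ± 1.29 to 8.73 ± 1.17 CPM (SD, n = 3), and the telomerase subunit TERT rose by 2.17 log2 units. CCND2, a cyclin, went the other way, from 185 ± 55.1 to 6.99 ± 0.922 CPM (SD, n = 3). In PEO4, 0 of 20 were called by edgeR, with or without the block, or by DESeq2, and 2 had an unadjusted p under 0.05 in edgeR without it. There the median was 0.00, and NPM1, the target with the most counts, differed by 0.0045 log2 units.

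The route by which TGF-β represses MYC and raises CDK inhibitors showed 1 call in PEO4. CDKN1A, the inhibitor p21, rose from 29.8 ± 2.26 to 60.7 ± 3.34 CPM (SD, n = 3; log2 difference 0.99, edgeR adjusted p 0.00200), and it passed in each of the 18 alternatives. It was the 1 of 11 tested genes called, against 2.26% of all genes. MYC, which is known to repress CDKN1A, differed by -0.13 ± 0.15 in the same libraries. A link between the levels of MYC and CDKN1A was not tested. In the SW lines CDKN1A was lower in SW620, at 4.52 ± 0.923 CPM against 77.1 ± 20.5 CPM in SW480 (SD, n = 3). Of 12 genes of the list 3 were called higher there and 2 lower, against 13.5% and 17.0% of all genes. With the block 4 were higher and 4 lower, against 24.4% and 26.5%. E2F4 (1.56), E2F5 (0.90) and SMAD3 (0.64) were those called higher without the block. When single libraries were left out, E2F5 passed in 4 and SMAD3 in 3 of 6 fits.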

How the data were processed

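RNA-seq counts of 12 libraries in 4 groups were used. The deposited table holds whole-number counts per gene, which the authors made with Trimmomatic 0.36, STAR 2.5.2b and featureCounts (Subread 1.5.2) on GRCh38, per the submitters' processing notes, which also name DESeq2. The annotation and strand setting are not given in the sources used here. The authors' deposited tables also give log2 fold changes and adjusted p-values. In the authors' deposited table the SW620 against SW480 difference was 1.05 for FOS (adjusted p-value 0.0659) and 0.86 for MYC (0.00885), and no member passed in PEO4. The files hold 485 gene IDs without a symbol, and positions, exon lengths and GC content came from GENCODE 29, where 56898 of 57500 IDs were found.

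Fits used the 6 libraries of a comparison and edgeR 4.0.16 with limma 3.58.1 (R 4.3.3), with filterByExpr, TMM factors and the two-sided quasi-likelihood test, with Benjamini-Hochberg adjustment over all genes tested and a threshold of 0.05. The biological coefficient of variation common to all genes was 0.274 (SW lines) and 0.152 (PEO4). Levels in CPM were scaled by TMM over all 12 libraries, and RPKM divides them by the kilobases of all exons of a gene. Log2 CPM used a prior count of 0.5. Library totals were 14531420 to 22028956 counts. The labels name no molecular identifiers, so limits cover counting error only. No 2 libraries held identical values.

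Same-numbered libraries were taken as paired because the correlation of their deviations from the group means exceeded 0.1 in every pair, at 0.23, 0.78 and 0.72 in the SW lines and 0.57, 0.18 and 0.64 in PEO4. SW480 replicate 1 correlated more with SW620 replicate 3 (0.37) than with SW620 replicate 1 (0.23). The other pairs of unlike number reached at most 0.061 in the SW lines, and those of PEO4 at most 0.021. The labels do not say what a number shares, so the pairing was judged on the same libraries that the blocked fits test.

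Alternatives were DESeq2 1.42.0, RLE and total-count scaling, no count filter, 10 counts in every library, all 12 libraries in 1 model, the replicate block and leaving out each library. A GC correction (lowess span 0.3), alone and with the block, and the block without each pair were chosen after seeing the data. The scripts were tested on simulated data. The members and gene lists were chosen with earlier results of these data known. Named are all 10 members and, from each list, up to 4 genes past the threshold with the largest absolute log2 fold change, or the gene with the most counts where none passed. Genes named for the block alone were chosen after their values were seen. Of the list genes, 2 are not in the count table and were not analysed here. FOSL1 had no promoter window, and MYC's was not used. PEO4-like reads were estimated from genes of at least 20 CPM in every PEO4 library. Their counts were at most 3 in the other SW libraries, of which 1 was allowed to exceed that limit. Some genes that the naming rule chose are not reported here.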

Additional observations from a re-analysis of the deposited data

How the results depend on the processing

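In SW620 against SW480, 4 members were called higher and 1 lower. Leaving out 1 library at a time gave 2 to 4 higher and 1 to 2 lower, and 32 to 60 list genes called against 46. With the replicate block 6 were higher and 2 lower and 77 list genes were called, and GC correction with the block gave 7, 2 and 83. The share of all genes called rose as well, from 30.5% in the main fit to 50.9% with the block. For the fits without 1 library, with GC correction and the block, or with the block and without a pair, that share is not given here. Their counts can therefore not be set against all genes. With the block and without replicate 1, 2 or 3 of both groups, 73, 73 and 78 list genes were called, and 2 members were lower without replicate 2 or 3. Without SW620 replicate 3 the signs of JUNB, JUND and EGR1 turned. Over the fits without 1 library JUNB ranged from -0.067 to 0.77, JUND from -0.11 to 0.41 and EGR1 from -0.35 to 0.51. With the block and without replicate 3 of both groups JUND was -0.016 and EGR1 -0.023. The share of JUNB turned without SW480 replicate 3 (0.444 points) or SW620 replicate 2, in a range of -2.37 to 0.484.

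In PEO4, 0 members and 5 list genes were called. Leaving out 1 library at a time gave 0 members and 1 to 17 list genes. DESeq2 called 14 list genes, all 12 libraries in 1 model 2, and no count filter 24, with 1 member higher and 2 lower. The replicate block gave 1 higher, 2 lower and 29 list genes, and GC correction with the block 1, 4 and 35. Of all genes 2.26% were called in the main fit, 5.29% by DESeq2 and 3.82% with no count filter. With the block the share was 11.0%, with or without GC correction. For the fits without 1 library and with all 12 libraries in 1 model that share is not given here. Their counts can therefore not be set against all genes. With the block and without replicate 1, 2 or 3 of both groups, 2, 2 and 1 members were higher, 2, 4 and 2 lower, and 30, 31 and 20 list genes were called. The cause of these differences was not tested.

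Small differences in PEO4 changed sign. Without 1 library at a time, FOSL1 ranged from -0.038 to 0.50, MYC from -0.23 to 0.0014, JUN from -0.20 to 0.16, JUNB from -0.14 to 0.24, and JUND from -0.12 to 0.16. JUN was 0.0069 with no count filter, 0.016 with all 12 libraries and 0.035 with the block without replicate 1 of both groups. JUNB was -0.079 with GC correction, -0.085 with GC correction and the block, and -0.028 and -0.020 with the block without replicate 1 and 2 of both groups. JUND was 0.0034 with DESeq2, 0.018 with no count filter, 0.025 with all 12 libraries and 0.041 with the block without replicate 3 of both groups. The share of FOSL2 turned without control replicate 3 or TGF-β replicate 1 or 2, in a range of -1.94 to 0.594 points.

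The block changed no member's call other than those given with the results. RLE scaling, total-count scaling and a minimum of 10 counts in every library left each member on its side of the threshold in both comparisons. With 3 libraries a group the intervals limit what can be seen, that of MYC in PEO4 running from -0.46 to 0.20 log2 units.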

Other observations

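Of 11 MAP kinase and downstream kinase genes upstream of the early response, 1 was called higher in SW620 and 3 lower, against 13.5% and 17.0% of all genes, and with the block 3 and 7, against 24.4% and 26.5%. RPS6KA5 (MSK1, a histone kinase at early response genes) was lower at -1.05 log2 units and MAPK9 (JNK2, a JUN kinase) at -0.94, with edgeR adjusted p of 0.00337 and 0.00162. MAPK14 (p38α) was higher at 0.59 and RPS6KA4 lower at -0.55, and each passed in 2 of 6 fits that left out 1 library. Of 7 genes for SRF and its cofactors, 2 were called lower in SW620 and 0 higher, against 17.0% and 13.5% of all genes. With the block 4 were lower and 1 higher, against 26.5% and 24.4%. ELK3 fell from 60.4 ± 7.53 to 13.2 ± 0.295 CPM (SD, n = 3), and MYOCD had at most 2 counts in an SW620 library and up to 31 in SW480. In PEO4, ELK3 rose with TGF-β at 0.70 log2 units (edgeR adjusted p 0.0355), a call that held in 1 of 6 fits that left out 1 library. No kinase was called there by edgeR without the block or by DESeq2, and 2 of 11 had an unadjusted p under 0.05 in edgeR. With the block 1 was called, RPS6KA4, which was higher (0.36, edgeR adjusted p 0.0279).

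Some genes of MYC turnover and neighbours of MYC were called in the SW lines. PIM1, a kinase that stabilises MYC, fell from 35.5 ± 6.18 in SW480 to 7.07 ± 1.49 CPM in SW620, and SKP2, a ubiquitin ligase subunit, rose from 37.7 ± 6.74 to 70.4 ± 9.34 CPM (SD, n = 3). They were the 2 turnover genes called among 7 tested, near the 30.5% of all genes called. With the block 2 were higher and 1 lower, against 24.4% and 26.5%. In PEO4, PIM1 was the 1 of 7 called, against 2.26% of all genes. It differed by 0.85 log2 units with TGF-β (edgeR adjusted p 0.0301) and passed in 3 of 6 fits that left out 1 library. Of 3 neighbours tested, 2 were called lower in SW620, against 17.0% of all genes. PVT1, the RNA next to MYC, was lower at -1.65 log2 units while MYC was higher. CASC8 had 5.19 ± 0.770 CPM in SW480 and at most 5 counts in an SW620 library (SD, n = 3). PVT1 differed by -0.18 in PEO4 with TGF-β (edgeR adjusted p 0.508).

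The genes whose pattern over the 12 libraries was closest to a member were found by the root-mean-square difference of centred log2 CPM among 14952 genes. For MYC PRMT5 (0.14) was among the 2 closest. For FOSL2 the 2 closest were RARG (0.17) and P2RX7 (0.20), for JUND MZT2B (0.14) and UBE2F (0.15), for FOSL1 BTD (0.21) and TMOD2 (0.21), and for JUNB RNF139 (0.21) and ZNF503 (0.22). For JUN they were IFIT5 (0.24) and CASP4 (0.28), for ATF3 ADGRG1 (0.33) and LRRC61 (0.35), for FOSB DNALI1 (0.34) and C1orf115 (0.40), for EGR1 CDKN2C (0.34) and IRX5 (0.35), and for FOS MISP3 (0.48) and ALAS2 (0.50). For FOS the closest gene was farther away than for any other member.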
